A study of Mus musculus with 56 samples.

Results

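B and T lymphocytes were followed in mouse skeletal muscle through 33 genes that mark them. Of these, 12 are genes of B cells, 17 are genes of T cells and 4 are genes that both share with other white blood cells. The expression arrays held a probe set with 1 gene symbol for 31 of the 33, among the 18193 genes so measured, and the expression of Lck and Tcf7, both of T cells, was not analysed here. Where a gene had several such probe sets, the one with the highest mean over all arrays stood for it.

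RNA of the gastrocnemius, a muscle of the calf, was taken from female C57BL/6 mice, amplified and hybridised to 56 arrays from 55 mice in 9 groups. One group was untreated at week 0. The others breathed 4% mainstream cigarette smoke, or air as the sham exposure, through the nose for 2 hours on 5 days of each week over 2, 12 or 24 weeks. In the cessation arms, named FA and RA in the labels, 12 weeks of smoke were followed by 12 weeks of sham exposure. No source used here defines FA or RA, and FA also stands in the labels of sham exposed mice. A group comprised 6 mice with 1 array each. With 12 weeks of smoke there were 7 mice and 8 arrays, because the mouse named G8 was measured on a pair of arrays, replicates 7 and 8.

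A B cell recognises antigen with a membrane immunoglobulin that signals through Cd79a and Cd79b, and a T cell with a receptor that signals through the Cd3 chains and Cd247. Resting muscle holds few of either. Lymph nodes lie in the fat beside limb muscles, and there B cells gather in follicles, drawn by Cxcl13 acting on Cxcr5, while T cells keep to the zones between them, drawn by the ligands of Ccr7. Both enter through high endothelial venules, vessels whose wall cells make the mucin Glycam1.

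To set B and T cell genes side by side as sequence, the 250 bases before the start of 4 genes that work at the antigen receptors are printed 5′ to 3′ on the coding strand, from RefSeq on build GRCm38.p6, with motif matches in capitals. Cd79a (chr7:24897247-24897496, + strand) and Cd22 (chr7:30879029-30879278, - strand) stand for B cells, and Cd3d (chr9:44981536-44981785, + strand) and Cd3e (chr9:45009612-45009861, - strand) for T cells.
Cd79a: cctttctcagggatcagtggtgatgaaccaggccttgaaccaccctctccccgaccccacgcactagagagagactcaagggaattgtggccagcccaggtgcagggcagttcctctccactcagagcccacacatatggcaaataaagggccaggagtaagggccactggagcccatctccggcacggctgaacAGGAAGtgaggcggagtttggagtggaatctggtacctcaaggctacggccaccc
Cd22: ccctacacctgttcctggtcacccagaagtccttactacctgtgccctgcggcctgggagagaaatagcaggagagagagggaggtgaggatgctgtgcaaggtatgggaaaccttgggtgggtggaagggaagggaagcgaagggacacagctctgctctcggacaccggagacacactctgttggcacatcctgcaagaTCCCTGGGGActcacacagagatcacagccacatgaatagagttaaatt
Cd3d: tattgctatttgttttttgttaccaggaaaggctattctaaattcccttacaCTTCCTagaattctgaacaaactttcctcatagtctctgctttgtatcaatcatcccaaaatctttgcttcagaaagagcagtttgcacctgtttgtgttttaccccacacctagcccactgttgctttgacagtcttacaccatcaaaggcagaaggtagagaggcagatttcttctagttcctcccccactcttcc
Cd3e: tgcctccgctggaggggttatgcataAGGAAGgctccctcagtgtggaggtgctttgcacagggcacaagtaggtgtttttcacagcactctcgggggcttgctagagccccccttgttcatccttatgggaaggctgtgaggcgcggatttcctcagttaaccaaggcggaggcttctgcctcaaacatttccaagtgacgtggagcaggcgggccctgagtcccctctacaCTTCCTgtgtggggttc
The motifs were searched on both strands in 9 windows of 7 B cell genes and 19 windows of 12 T cell genes, Lck and Tcf7 among these T cell genes, and none overlaps another in these 4. The palindromic motif of EBF factors of B cells stood in 1 B window, that of Cd22, and in no T window, against 0.779% of all 32851 windows. The ETS core AGGAAG stood in 5 B windows and 11 T windows, against 29.5% of all windows, and the windows of Cd79a, Cd3d and Cd3e printed here hold it. The RUNX core TGTGGT stood in 1 B window and 2 T windows, against 14.05% of all. The octamer ATTTGCAT stood in none of them, against 1.60% of all. A match describes these letters and does not show binding.

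Levels are log2 of the deposited intensity plus 16. Since probe sets differ in brightness, each gene was read only against itself, as its shift, the difference of an array from that probe set's median over the 56 arrays. The B shift of an array is the mean over the 12 B cell genes, the T shift the mean over the 15 measured T cell genes, and the balance is the B shift minus the T shift. A balance of 0 does not mean equal numbers of cells, because probe sets respond unequally. Each median is set mostly by arrays low in these genes, so such arrays lie near 0 whatever their share of B and T cells. Balances can be compared among arrays high in these genes. A difference between a high and a low array cannot be read as a difference in that share. Adding 16 shortens the shifts and fold changes of dim genes. The median intensity of an array lay between 62.5 and 77.5. Precision is limited by how many arrays there are.

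Lymphocyte genes were high together in 12 arrays and low in the other 44. Ordered by the mean shift of all 31 genes, the widest gap between neighbouring arrays, 1.45, lay between cessation FA replicate 4 at 2.46 and cessation FA replicate 3 at 1.02. Above it the B shift ran from 2.35 to 5.33 and the T shift from 2.40 to 4.69. In the other 44 arrays the B shift ran from -0.33 to 0.93 and the T shift from -0.33 to 1.24. These 12 arrays were chosen by the same genes, so their height is a description of the choice. In whole tissue, fewer cells of a type and less RNA per cell cannot be told apart.

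**Figure D1:**
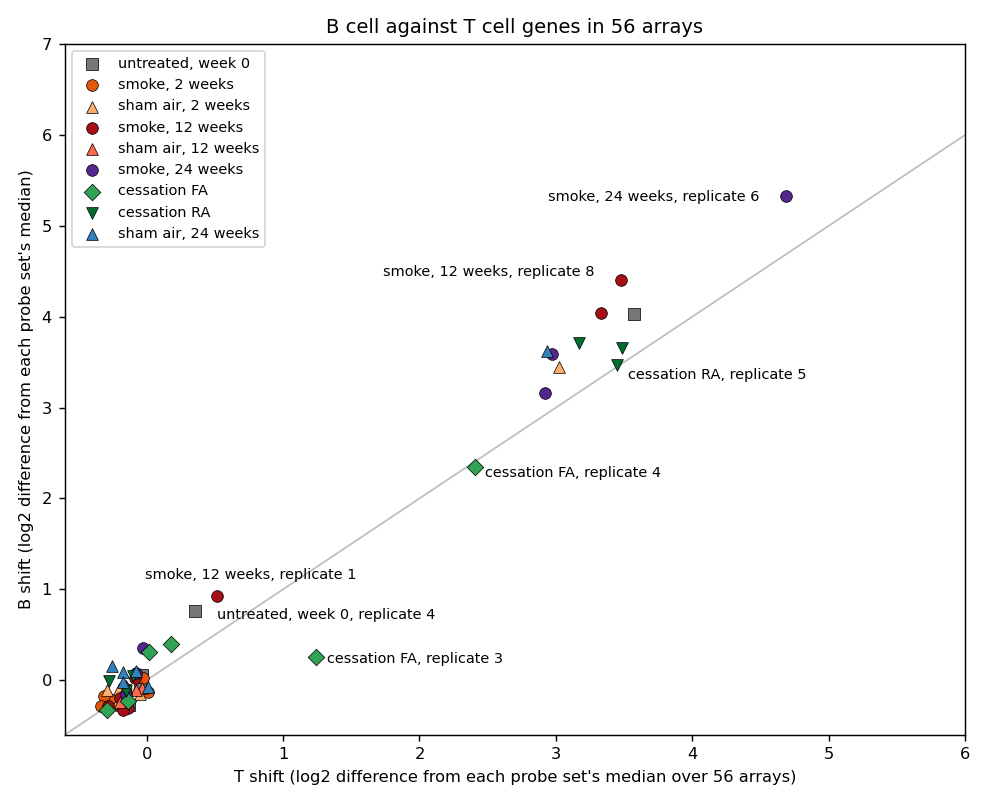
B shift (vertical axis) against T shift (horizontal axis) of all 56 arrays, both as mean log2 differences from each probe set's own median, with 1 symbol per group and a grey line where both are equal. The 12 arrays at the upper right have B shifts from 2.35 to 5.33, and cessation FA replicate 3 lies alone to the right of the main cloud, at a T shift of 1.24 and a B shift of 0.25.

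The 12 arrays were spread over 7 of the 9 groups. They were 1 of 6 arrays of untreated mice, 1 of 6 of sham air at 2 weeks and 2 of 8 of smoke at 12 weeks. At 24 weeks they were 3 of 6 of smoke, 1 of 6 of cessation FA, 3 of 6 of cessation RA and 1 of 6 of sham air. Smoke at 2 weeks and sham air at 12 weeks had none, and their B shifts stayed between -0.28 and 0.02 and between -0.24 and -0.07. Within a group the high arrays set the mean apart from the median. The B shift of untreated mice had a median of 0.01 and a mean of 0.74 ± 1.65 (SD, n = 6).

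**Figure D2:**
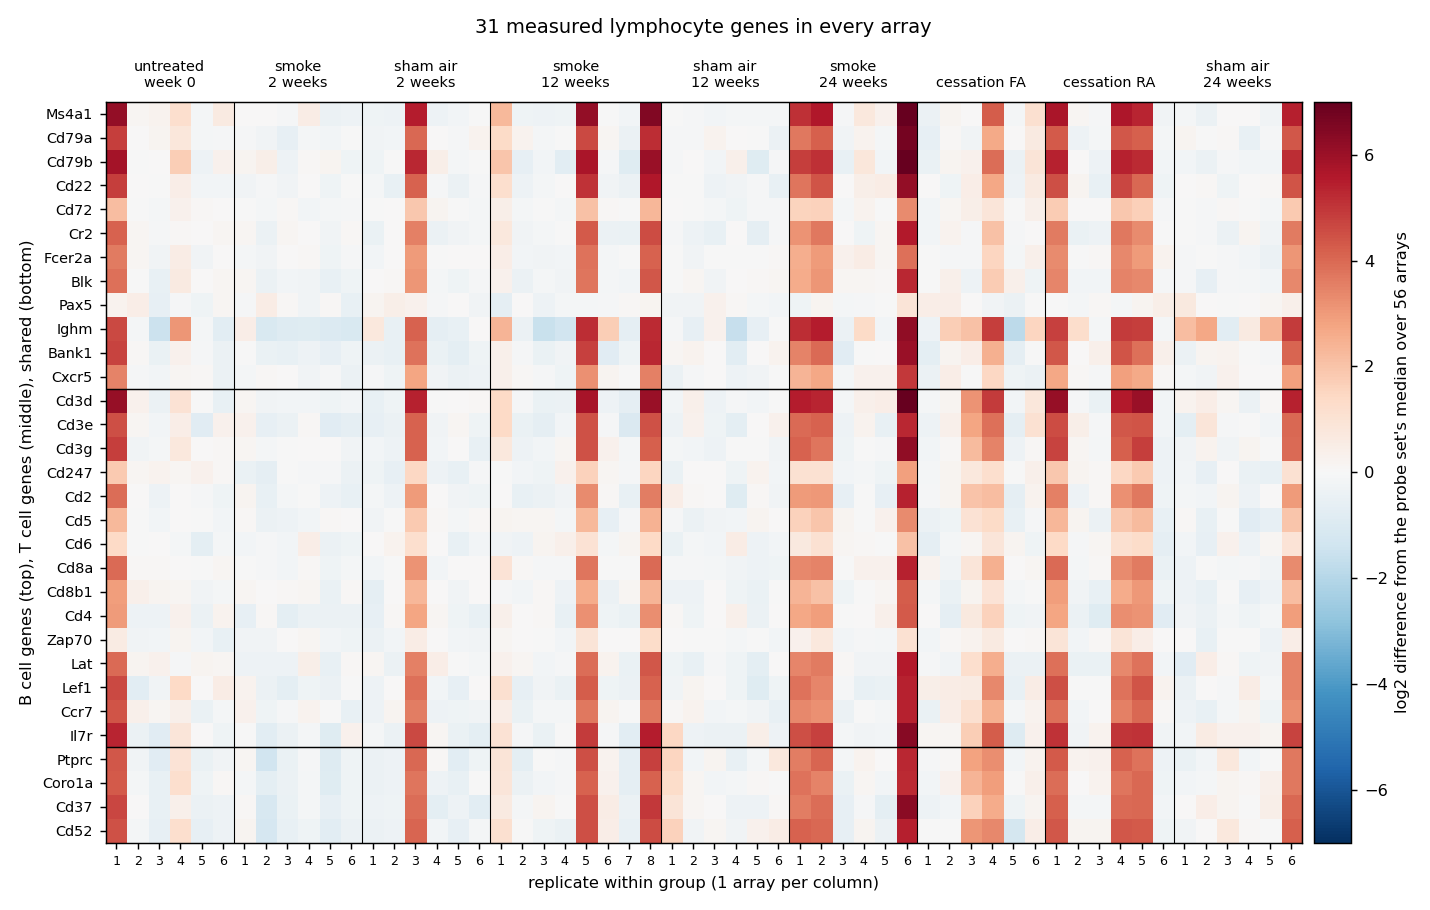
Log2 difference from the probe set's median (colour) of the 31 measured genes (rows; B cell genes above the first line, T cell genes between the lines, shared genes below) in each array (columns, grouped by exposure). The 12 red columns run through every gene except Pax5 and are pale for Zap70, while in cessation FA replicate 3 the T cell and shared rows are red and most B cell rows are not.

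Ms4a1, Cd79b and Ighm had the highest median shifts among B cell genes in the 12 arrays, at 5.63, 5.32 and 4.90. Ms4a1, the surface protein CD20 of B cells, lay in untreated mice at 5.07, 5.64 and 11.36 (lowest, median and highest array). At 2 weeks it lay at 4.80, 5.16 and 5.72 with smoke and at 4.82, 4.93 and 10.70 with sham air. At 12 weeks it lay at 4.87, 5.09 and 11.67 with smoke and at 5.02, 5.08 and 5.19 with sham air. The groups overlapped at their low ends, and each value of 9.42 or more was in 1 of the 12 arrays. At 24 weeks it lay at 5.11, 8.12 and 12.85 with smoke, at 4.78, 5.32 and 9.42 in cessation FA, at 4.97, 7.93 and 10.89 in cessation RA, and at 4.76, 5.13 and 10.65 with sham air. The medians near 8 fall between low and high arrays, where no array of either group lay.

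Cd79a, a signalling chain of the B cell receptor, was 4.96, 5.23 and 9.92 in untreated mice. At 2 weeks it was 4.54, 4.95 and 5.09 with smoke and 4.83, 5.08 and 9.12 with sham air. At 12 weeks it was 4.72, 5.30 and 10.25 with smoke and 4.70, 5.06 and 5.37 with sham air. All groups shared the low range around 5. After 24 weeks Cd79a was 4.84, 7.08 and 11.81 with smoke, 4.54, 5.16 and 7.76 in cessation FA, 4.74, 7.13 and 9.45 in cessation RA, and 4.58, 5.12 and 9.43 with sham air. Its partner chain Cd79b shifted by 3.89 to 7.30 in the 12 arrays.

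Ighm, the constant region of the IgM heavy chain, which B cells and plasma cells make, varied more than any other B cell gene outside the 12 arrays, with shifts from -1.81 to 3.09 there. In untreated mice its level was 5.60, 6.96 and 11.70. At 2 weeks it was 6.04, 6.16 and 7.55 with smoke and 6.45, 6.83 and 11.20 with sham air, and at 12 weeks 5.53, 7.73 and 12.31 with smoke and 5.46, 6.75 and 7.37 with sham air. By 24 weeks Ighm was 6.67, 10.33 and 13.29 with smoke, 5.27, 8.70 and 11.91 in cessation FA, 6.96, 10.10 and 11.96 in cessation RA, and 6.37, 9.35 and 12.00 with sham air. Sham air at 24 weeks was high in more than 1 mouse: replicates 1, 5 and 2 lay at 9.22, 9.48 and 9.79, although their Ms4a1 was in the low range. Ighm has 11 probe sets that disagree. The one used shifted by 4.11 to 6.21 in the 12 arrays, and the median shift there was above 1 for 9 of the 11 and ran from -0.16 to 5.22 over all of them. They also differed outside the 12. In smoke at 12 weeks, replicate 1, the one used shifted by 2.39 and the others by 0.10 to 7.42. In cessation FA replicate 6 the one used shifted by 1.51 and the others by 0.09 to 5.68.

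Pax5, the transcription factor that fixes B cell identity, did not follow the other B cell genes on these arrays. Its level was 4.30, 4.90 and 5.32 in untreated mice, and at 2 weeks 4.33, 4.86 and 5.40 with smoke and 4.63, 4.96 and 5.27 with sham air. At 12 weeks it was 4.26, 4.78 and 5.05 with smoke and 4.61, 4.71 and 5.15 with sham air. In the 24-week groups Pax5 was 4.56, 4.84 and 5.77 with smoke, 4.47, 4.89 and 5.34 in cessation FA, 4.74, 4.89 and 5.26 in cessation RA, and 4.85, 4.96 and 5.56 with sham air. Only 1 of the 12 arrays lay above all 44 others. Its other probe set shifted by -0.44 to 1.58 in the 12. For each of the other 30 measured genes, all 12 arrays lay above all 44 others.

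The remaining B cell genes kept to the same 12 arrays. Cd22, an inhibitory receptor of B cells, shifted by 2.72 to 6.14 in them and by at most 1.18 elsewhere. Cr2, the complement receptor CD21 of mature B cells and follicular dendritic cells, shifted by 2.04 to 5.58, and Fcer2a, the IgE receptor CD23 of follicular B cells, by 1.48 to 4.14. Among the signalling genes, the kinase Blk shifted by 1.80 to 5.26 and the adaptor Bank1 by 2.47 to 6.07. Cxcr5, the receptor that brings B cells into follicles, shifted by 1.46 to 4.96. Cd72, another inhibitory receptor, had the smallest range among these, 0.87 to 3.30, on a probe set whose median over all arrays was 8.35.

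T cell genes began with the receptor chains. Cd3e, a signalling chain of the T cell receptor, was 4.53, 5.54 and 9.85 in untreated mice. At 2 weeks it was 4.56, 4.86 and 5.64 with smoke and 4.78, 5.04 and 9.48 with sham air. At 12 weeks it was 4.32, 5.21 and 9.80 with smoke and 4.67, 5.18 and 5.65 with sham air. As for B cell genes, the groups shared their low range. The 24-week values of Cd3e were 4.82, 7.44 and 10.63 with smoke, 4.70, 6.04 and 9.18 in cessation FA, 5.16, 7.70 and 9.90 in cessation RA, and 4.63, 5.27 and 9.33 with sham air. In cessation FA a second mouse was high: replicate 3 lay at 8.08, outside the 12 arrays. Cd3d shifted by 4.90 to 7.51 in the 12 arrays, Cd3g by 3.47 to 6.19, and Cd247, the zeta chain, by 1.05 to 2.88. Of the 4 probe sets of Cd247, only the one used had a median shift above 1 in the 12.

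Both coreceptors were seen. Cd8a, of cytotoxic T cells, was 5.51, 5.60 and 9.46 in untreated mice, and at 2 weeks 5.21, 5.40 and 5.61 with smoke and 5.33, 5.49 and 8.67 with sham air. At 12 weeks it was 5.42, 5.54 and 9.47 with smoke and 5.16, 5.31 and 5.43 with sham air. At 24 weeks it was 5.49, 7.33 and 10.92 with smoke, 5.25, 5.70 and 8.00 in cessation FA, 5.04, 7.20 and 9.45 in cessation RA, and 5.17, 5.39 and 8.81 with sham air. All 5 of its probe sets had a median shift above 1 in the 12 arrays, so its height there does not rest on the one used. Cd8b1, the partner chain, shifted by 0.96 to 4.26.

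Cd4, of helper and regulatory T cells, was dimmer. It lay at 4.18, 4.51 and 7.54 in untreated mice, and at 2 weeks at 3.88, 4.17 and 4.64 with smoke and at 3.98, 4.46 and 7.35 with sham air. At 12 weeks it lay at 4.05, 4.62 and 7.82 with smoke and at 4.19, 4.60 and 4.93 with sham air. At 24 weeks it lay at 4.57, 6.11 and 8.85 with smoke, at 3.97, 4.46 and 6.21 in cessation FA, at 3.74, 5.73 and 7.81 in cessation RA, and at 4.17, 4.37 and 7.47 with sham air. Its other probe set shifted by only -0.12 to 1.15 in the 12 arrays.

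Genes of resting T cells that recirculate through lymph nodes followed. Il7r, the receptor for the survival factor interleukin 7, shifted by 4.22 to 6.36 in the 12 arrays, Lef1, a transcription factor of resting T cells, by 3.36 to 5.39, and Ccr7, the receptor that leads cells into lymph nodes, by 2.47 to 5.37. The adaptor Lat shifted by 2.57 to 5.52 and Cd2, an adhesion receptor, by 2.14 to 5.39. Cd5 and Cd6, related receptors that dampen T cell signals, shifted less, by 1.32 to 3.32 and by 0.71 to 2.03. Zap70, the kinase behind the receptor, shifted by 0.31 to 1.28 on the probe set of highest mean, whose suffix marks sequence shared with other transcripts.

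Among the shared genes, Ptprc, the phosphatase CD45 of all white blood cells, was 6.51, 7.06 and 11.66 in untreated mice. At 2 weeks it was 5.99, 6.92 and 7.45 with smoke and 6.59, 6.99 and 11.30 with sham air, and at 12 weeks 6.63, 7.43 and 12.09 with smoke and 6.76, 7.35 and 8.80 with sham air. At 24 weeks it was 7.15, 9.21 and 12.59 with smoke, 7.12, 7.45 and 10.53 in cessation FA, 6.96, 9.35 and 11.58 in cessation RA, and 6.83, 7.21 and 10.99 with sham air. Groups again overlapped at the low end. Coro1a, an actin-binding protein of white blood cells, shifted by 2.90 to 5.22 in the 12 arrays, the tetraspanin Cd37 by 2.58 to 6.29, and the surface glycoprotein Cd52 by 3.35 to 5.42.

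**Figure D3:**
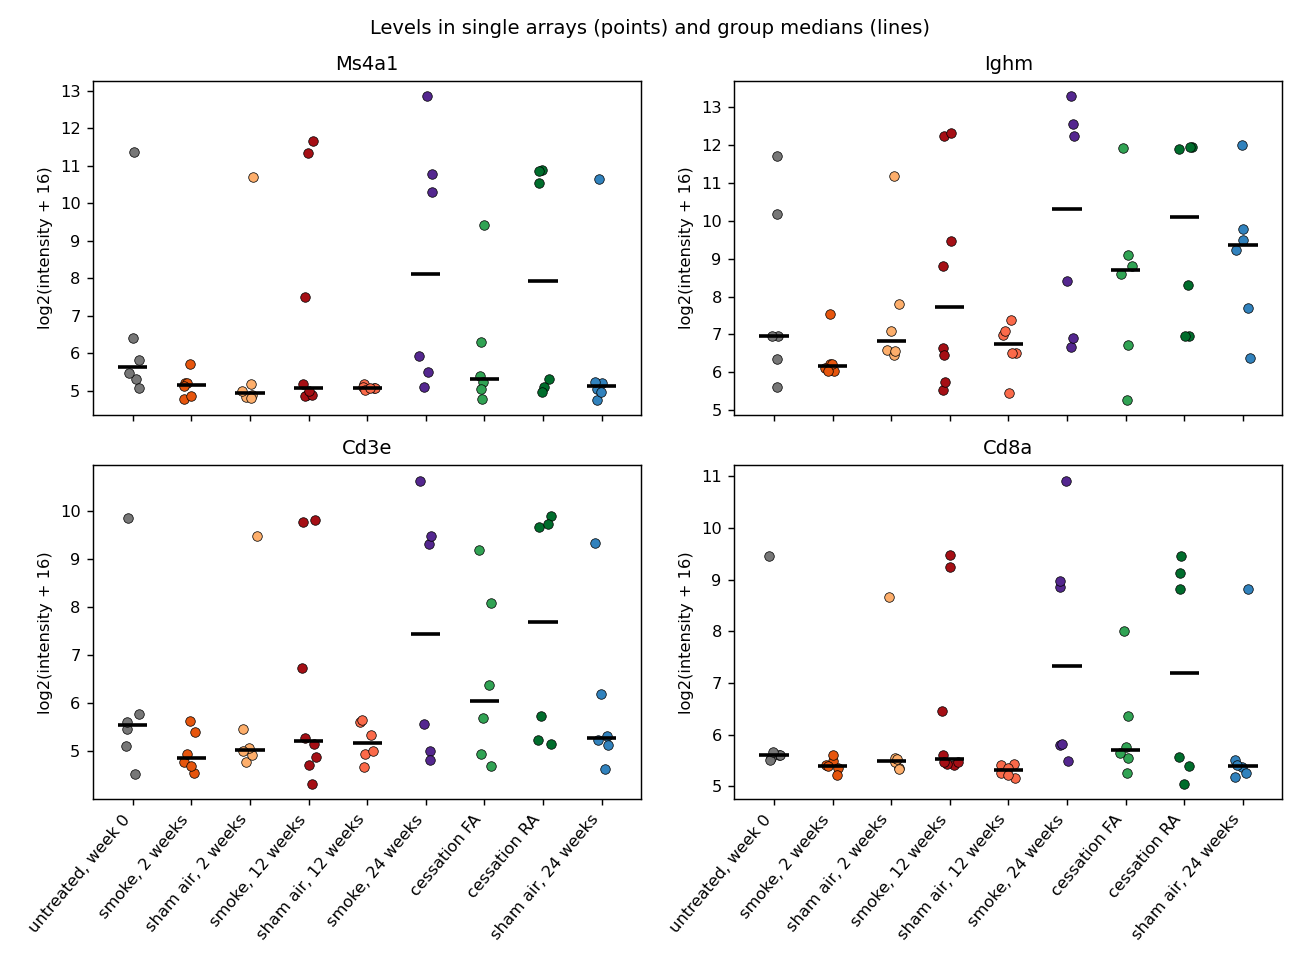
Level (log2 of intensity plus 16, vertical axes) of 2 B cell genes (Ms4a1, Ighm) and 2 T cell genes (Cd3e, Cd8a) in single arrays (points) by group (horizontal axes), with the group median as a line. Ms4a1, Cd3e and Cd8a fall into a low and a high set of arrays with a few between, and Ighm spreads between them, with sham air at 24 weeks at a median of 9.35.

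The balance of B against T cell genes differed among the 12 arrays, from -0.05 to 0.93 with a median of 0.50 and an SD of 0.30. Both 12-week smoke arrays among them were the most B-sided, replicate 8 at 0.93 (B shift 4.40, T shift 3.48) and replicate 5 at 0.71 (4.04 and 3.33). Next came sham air at 24 weeks, replicate 6, at 0.69, and smoke at 24 weeks, replicates 6 and 2, at 0.64 and 0.61. The middle held cessation RA replicate 4 at 0.54, untreated replicate 1 at 0.46 and sham air at 2 weeks, replicate 3, at 0.42. Smoke at 24 weeks, replicate 1, stood at 0.24. The most T-sided were cessation RA replicates 1 and 5, at 0.17 and 0.02, and cessation FA replicate 4, at -0.05. The 3 arrays of 24-week smoke and the 3 of cessation RA overlapped.

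Counted gene by gene, all 12 B cell genes shifted further in smoke at 12 weeks, replicate 8, than in cessation RA replicate 5, and so did 9 of the 15 T cell genes. Ms4a1 shifted by 6.48 and 5.35 in these arrays and Cd22 by 5.58 and 4.01, while Cd3d shifted by 6.03 and 6.02. Cessation FA replicate 4 was the lowest of the 12 for 10 of the 12 B cell genes and for 12 of the 15 T cell genes. Against each gene's own median over the 12, its median difference was -1.50 for B cell genes and -0.75 for T cell genes.

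**Figure D4:**
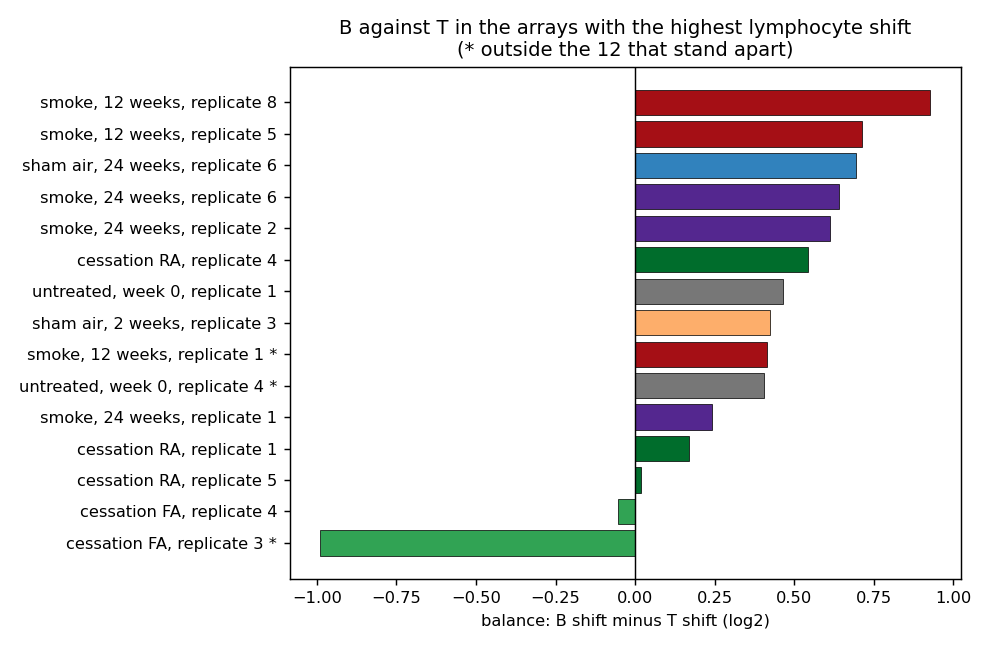
Balance (B shift minus T shift, log2, horizontal axis; bars start at 0) of the 15 arrays of highest lymphocyte shift, coloured by group, with an asterisk for 3 arrays outside the 12. Smoke at 12 weeks, replicate 8, is highest at 0.93, and cessation FA replicate 3 is lowest at -0.99.

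The order of the 12 depended in part on the processing. Smoke at 12 weeks, replicate 8, ranked 1 or 2 of 12 in each of 7 settings, and cessation FA replicate 4 ranked 12 in 6 of them and 9 on linear intensity. Smoke at 24 weeks, replicate 6, ranked between 1 and 7. With the median over genes in place of the mean, smoke at 12 weeks, replicate 8, stood 0.71 above the median of the 12 and cessation FA replicate 4 stood 0.70 below it, against 0.42 and 0.56 with the mean. On the linear scale, where bright genes weigh most, summed intensity above the median was 20071 for B cell genes and 9481 for T cell genes in smoke at 12 weeks, replicate 8, and 10656 and 9298 in cessation RA replicate 5. There cessation RA replicate 5 was the most T-sided of the 12 and smoke at 24 weeks, replicate 2, the most B-sided.

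Cessation FA replicate 3 had raised T cell genes, while most B cell genes lay nearer their medians. Its balance of -0.99 was the lowest of the 56 arrays, with a T shift of 1.24 and a B shift of 0.25. Cd3d was 3.16 above its median, Cd3e 2.76, Cd3g 2.24 and Cd2 2.01, and for 11 of the 15 T cell genes it was the highest of the 44 arrays. Cd8a was 0.84 and Cd4 0.67 above. Ms4a1 stood at 0.05, Cd79a at -0.25, Cr2 at -0.10, Fcer2a at -0.07, Blk at -0.33, Cxcr5 at -0.02 and Pax5 at 0.04. Cd22 stood at 0.49, Bank1 at 0.48, Cd72 at 0.39 and Cd79b at 0.30. For Bank1 too this array was the highest of the 44. Ighm, at 2.02, was the only B cell gene shifted by more than 1. That value rests on 1 probe set, since the other 10 of Ighm shifted by -0.37 to 0.91 in this array.

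Other white blood cell genes were high in the same array. All 4 shared genes shifted by more than 1, with Cd52 at 3.10 and Ptprc at 2.80. Of the 9 measured NK and cytotoxic genes 5 did so, with the granule proteases Gzma at 3.68 and Gzmb at 3.44 and the receptor Klrk1 at 2.54. Their mean shift of 1.97 lay within the range of the 12 arrays, 0.81 to 3.07. Macrophage genes shifted by 1.50 on average, 7 of 8 by more than 1, with Adgre1 at 2.24. This mean too lay within the range of the 12 arrays, 0.35 to 1.65. Glycam1 stood at 0.19 and the adipocyte genes at -0.31 on average, unlike in the 12 arrays. The part of these cells in the T cell result was not tested.

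Smoke at 12 weeks, replicate 1, and untreated replicate 4 lay outside the 12, with B shifts above their T shifts. Their balances were 0.41 and 0.40, and sham air at 24 weeks, replicate 1, also had 0.41 with a B shift of only 0.16. Such balances outside the 12 cannot be read as a share of cells. In that 12-week array the B shift was 0.93 and the T shift 0.52, with Ms4a1 at 2.29, Cd79b at 1.96 and Cd3e at 1.40 above their medians. Ighm was 2.39 above on the probe set used and 0.10 to 7.42 above on its others. Jchain, which joins IgM and IgA chains, was 3.86 above and Glycam1 2.49. Untreated replicate 4 had a B shift of 0.76 and a T shift of 0.35, with Ighm at 3.09 and Cd79b at 1.72. The other probe sets of Ighm shifted by -0.22 to 3.25 there. In the untreated array neutrophil granule genes were high, Ngp by 5.86 and S100a9 by 5.54, all 5 measured by more than 1, and the neutrophil mean of 4.94 was the highest of all arrays. Alas2, of developing red cells, was 2.04 above and Ppbp, of platelets, 3.64. The other measured genes of that list stayed near their medians, Hba-a1 at -0.0001, Slc4a1 at -0.17 and Pf4 at 0.05. Mki67, of dividing cells, was 3.16 above. Of the thymocyte genes, Rag1 was 1.59, Dntt 1.46 and Rag2 0.30 above. How far these cells bear on its B cell genes was not tested.

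Smoke at 24 weeks, replicate 6, stood above the other 11 in both shifts, and it alone had plasma cell genes of matching height on average. Their mean shift was 4.56, against 1.18 to 1.52 in the other 11. Jchain was high in all 12, by 6.72 in this array and by 4.37 to 5.26 in the other 11. Derl3, an endoplasmic reticulum protein of secreting cells, was 6.81 above its median, Mzb1, a chaperone of IgM assembly, 6.60, and Tnfrsf17, the survival receptor BCMA, 3.65. Among germinal centre genes, Gcsam was 3.24 and Mef2b 2.27 above, with a mean of 1.72 against at most 0.42 in the other 11. Cell cycle genes averaged 4.14, with Mki67 at 5.93 and Top2a at 5.76. In that array the T cell gene Cd3d was 7.51 above its median and the B cell gene Ms4a1 7.66.

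Further genes of both lineages moved with the 31. Of 12 other measured B cell genes 11 had a median shift above 1 in the 12 arrays, and their mean ran from 1.60 to 4.61 there and from -0.40 to 0.67 elsewhere. Tnfrsf13c, the survival receptor BAFF-R, shifted by 3.97 to 7.47 and Pou2af1, a coactivator of B cells, by 3.95 to 7.08, while Ebf1, also a factor of fat and stromal cells, shifted by 0.18 to 0.80. Of 14 other measured T cell genes 11 had a median above 1, and their mean ran from 1.36 to 3.10 in the 12 and from -0.29 to 0.67 elsewhere. Bcl11b, a factor of T cell identity, shifted by 4.16 to 6.06. Regulatory T cell genes shifted less, with a mean of 0.31 to 1.05 in the 12 and of -0.32 to 0.38 elsewhere. In the 12, Foxp3 lay between -0.44 and 0.23 and Ikzf2 between -1.10 and 0.15. Il2ra lay there between 0.50 and 0.95, and Tnfrsf18 between 1.11 and 3.76. A small shift does not show how many such cells there were.

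Vessel and stroma genes of lymph nodes were higher on average in the same arrays. Their mean ran from 1.90 to 2.98 in the 12 and from -0.67 to 0.31 in the other 44, and 4 of 8 measured genes had a median shift above 1 in the 12. Glycam1 shifted by 6.92 to 7.52 there and Cxcl13, the follicle chemokine, by 3.17 to 5.37. Fcgbp ran from 0.02 to 6.13, and Lyve1 and Prox1, of lymphatic vessels, from 0.21 to 1.63 and from -0.21 to 0.71. Adipocyte genes averaged 1.16 to 2.52 in the 12 and reached 2.42 elsewhere, so they overlapped. Thymocyte genes averaged 0.39 to 0.83 in the 12 and -0.38 to 0.79 elsewhere, so they overlapped too. Rag2 lay between -0.38 and 0.04 in the 12, and the only thymocyte gene with a median above 1 there was Cd1d1. Spleen genes averaged 0.38 to 1.69 in the 12 and -0.26 to 0.40 elsewhere, with a median above 1 for 2 of 5, while Tlx1, a factor of spleen development, stayed between -0.58 and 0.15. Dendritic cell genes averaged 0.64 to 1.84 in the 12 and at most 0.61 elsewhere, with 3 of 5 above 1. Neutrophil genes averaged 0.94 to 2.81 in the 12, with 3 of 5 above 1, and reached 4.94 elsewhere. Muscle genes lay at levels from 12.43 to 13.84 in the 12 arrays and 6 others, near the top of the scale, where shifts can show little. The part of any of these tissues or cells in the shifts was not tested.

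**Figure D5:**
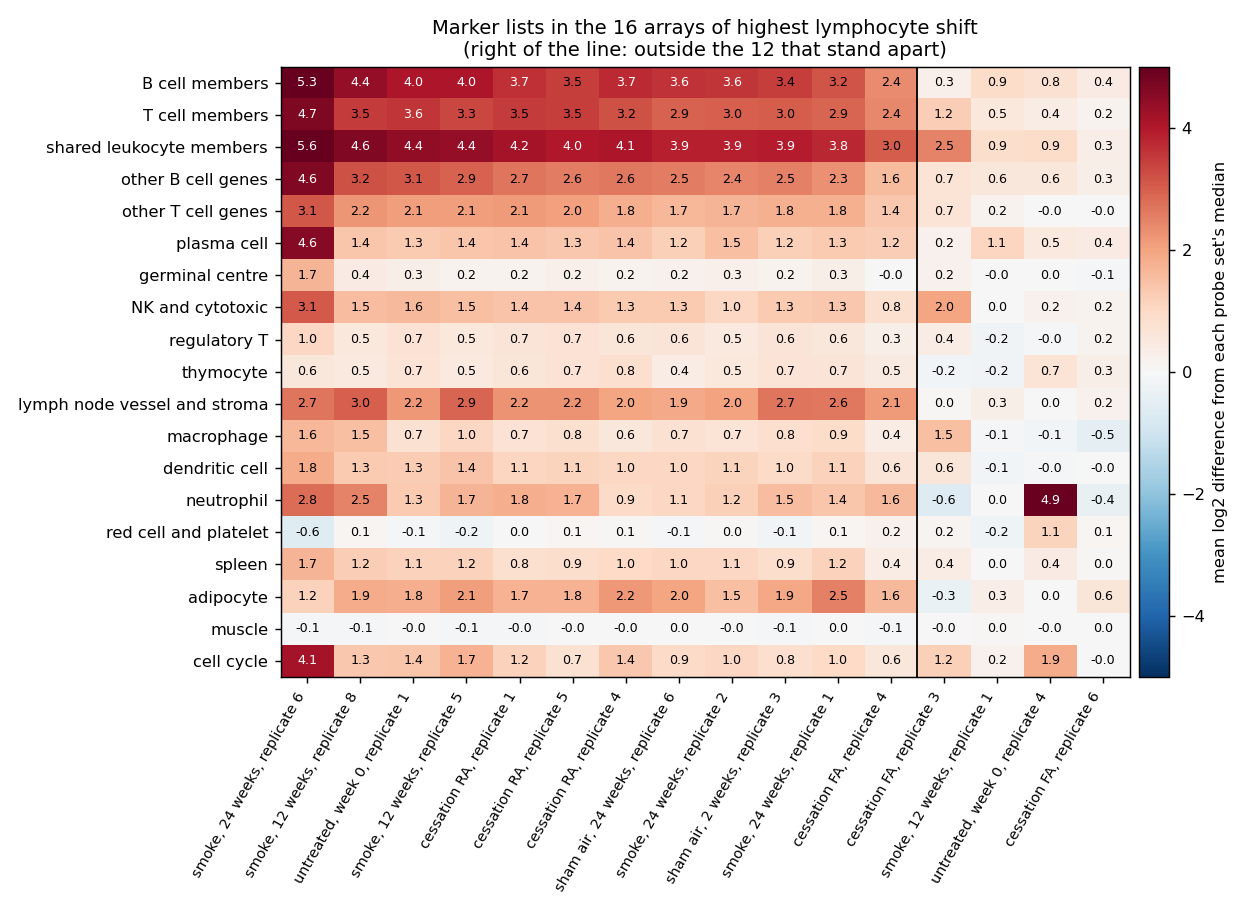
Mean log2 difference from each probe set's median (colour and printed value) for 19 lists of genes (rows) in the 16 arrays of highest lymphocyte shift (columns, highest first), with a line after the 12. Lymph node vessel and stroma genes average 1.90 to 2.98 left of the line and at most 0.31 right of it, muscle genes are near 0 throughout, and neutrophil genes peak in untreated replicate 4 at 4.94.

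The mouse G8 gave both kinds of array. Its replicate 8 had a B shift of 4.40 and its replicate 7 of -0.28, with Ms4a1 at 11.67 and 4.98, Cd79b at 11.41 and 4.57, Cd3d at 10.59 and 3.94 and Ptprc at 12.09 and 6.68. All 31 genes were higher in replicate 8, by 0.07 for Pax5 up to 6.85 for Cd79b. No source used here says whether both arrays came from 1 piece of muscle. Its replicate 8 is among the 12 arrays and its replicate 7 is not.

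Groups were compared with limma, in 1 model of 55 mice with the G8 arrays averaged. A filter on dim genes, a mean over all arrays of at least 5.71, kept 12351 genes and 24 of the 31, namely 9 B cell, 11 T cell and 4 shared genes. Blk, Pax5, Cxcr5, Cd8b1, Cd4, Lat and Ccr7 did not pass. Only 11 of the 31 had a median over all arrays above that level, and all 11 are among the 24. The rest of the 24 entered through the 12 arrays, so counts over the 24 are descriptions. The threshold was an adjusted p of 0.05 (Benjamini-Hochberg). The p-values rest on a spread between mice that is pooled for each gene over all 9 groups. They do not reflect the spread of the compared groups alone. Groups differed in this: the SD of the B shift was 0.08 with sham air at 12 weeks and 2.28 with smoke at 24 weeks. Over all genes the median difference lay between -0.03 and -0.01 in each of the 8 comparisons, and 42.5% to 48.4% of all genes had a difference above 0. Medians without the 12 arrays leave out arrays chosen by these genes and are descriptions too.

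Smoke for 2 weeks was set against sham air to find early changes. None of the 24 genes passed, in limma, and none had an unadjusted p under 0.05, with 0% of all 12351 genes called. Their median difference was -0.65, and it was -0.03 without the high array, which was in sham air. Of the B cell genes, Ighm was 6.36 ± 0.59 with smoke and 7.61 ± 1.83 with sham air (SD, n = 6 each), a difference of -1.25 ± 1.20 (SE, limma adjusted p = 0.998). Cd79a differed by -0.83 ± 1.01 and Cd72 by -0.39 ± 0.45. Of the T cell genes, Cd3e was 5.00 ± 0.43 with smoke and 5.79 ± 1.82 with sham air, and Lef1 and Cd5 differed by -0.74 ± 0.96 and -0.39 ± 0.52. The balance was 0.01 ± 0.10 with smoke and 0.10 ± 0.19 with sham air.

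Smoke for 12 weeks had high arrays from 2 mice and sham air none. No gene of the 24 passed and none had an unadjusted p under 0.05 in limma, with 0.00810% of all genes called. All 24 differences were above 0, with a median of 1.02, which was 0.06 without the high arrays. Cd22 was 6.58 ± 2.03 with smoke (SD, n = 7) and 5.21 ± 0.21 with sham air (n = 6), a difference of 1.37 ± 0.98 (SE, limma adjusted p = 0.999). Ighm differed by 1.61 ± 1.15 and Cr2 by 1.17 ± 0.84. Among T cell genes, Cd3g was 5.84 ± 1.72 and 4.67 ± 0.14, Cd8a differed by 1.13 ± 0.79 and Zap70 by 0.28 ± 0.20. The balance was 0.20 ± 0.34 with smoke and -0.01 ± 0.06 with sham air, a difference of 0.20 that was 0.04 without the high arrays.

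Smoke for 24 weeks had 3 high arrays of 6, against 1 of 6 with sham air. No gene of the 24 passed, with 0.470% of all genes called, and 3 T cell genes had an unadjusted p under 0.05 in limma. All 24 differences were above 0, with a median of 1.41, and of 0.05 without the high arrays. Cd5 was 6.72 ± 1.30 with smoke and 5.51 ± 0.99 with sham air (SD, n = 6 each), a difference of 1.21 ± 0.52 (SE, limma adjusted p = 0.15, the lowest of the 24). Cd8a differed by 1.72 ± 0.82 and Cd247 by 0.84 ± 0.41. Of the B cell genes Ms4a1 was 8.41 ± 3.30 and 5.98 ± 2.30, a difference of 2.44 ± 1.28 (limma adjusted p = 0.23), Fcer2a differed by 1.34 ± 0.71 and Cd72 by 0.82 ± 0.45. The balance, 0.34 ± 0.26 with smoke and 0.27 ± 0.26 with sham air, differed by 0.07.

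Cessation FA, with 1 high array and replicate 3, was set against sham air at 24 weeks, with 1 high array. No gene passed, none had an unadjusted p under 0.05 in limma, and 0.0810% of all genes were called. B cell genes had a median difference of -0.19, with 2 of 9 above 0, and T cell genes of 0.23, with 9 of 11 above 0. Without the high arrays these medians were 0.11 and 0.37, with the median of all genes at -0.01. Cd247 was 6.93 ± 0.50 in cessation FA and 6.44 ± 0.63 with sham air (SD, n = 6 each), a difference of 0.49 ± 0.41 (SE, limma adjusted p = 0.88). Cd3e differed by 0.53 ± 1.02 and Zap70 by 0.21 ± 0.20, and of the B cell genes Ighm by -0.69 ± 1.20, Bank1 by -0.36 ± 1.00 and Cd79a by -0.23 ± 1.01. The balance was -0.11 ± 0.46 in cessation FA and 0.27 ± 0.26 with sham air, a difference of -0.38 beside a pooled SD of 0.37. Without cessation FA replicate 3 it was -0.20, and without that array and the 12 it was -0.09, where the T shift differed by 0.08.

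Cessation RA, with 3 high arrays of 6, was set against the same sham air mice. No gene passed, with 1.76% of all genes called, and 2 T cell genes had an unadjusted p under 0.05 in limma. All 24 differences were above 0, with a median of 1.34, and of -0.03 without the high arrays. Cd247 was 7.39 ± 0.97 in cessation RA and 6.44 ± 0.63 with sham air (SD, n = 6 each), a difference of 0.95 ± 0.41 (SE, limma adjusted p = 0.26). Zap70 differed by 0.43 ± 0.20 and Cd5 by 0.93 ± 0.52. Ms4a1 was 7.95 ± 3.09 and 5.98 ± 2.30, Bank1 differed by 1.57 ± 1.00 and Fcer2a by 1.27 ± 0.71. The balance was 0.20 ± 0.19 in cessation RA and 0.27 ± 0.26 with sham air.

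Continued smoke of 24 weeks was set against each arm that had stopped, which shares the 24-week smoke mice. Against cessation FA no gene passed, with 3.55% of all genes called, and Fcer2a and Cd5 had an unadjusted p under 0.05 in limma. All 24 differences were above 0, with a median of 1.42, but of -0.28 without the high arrays, where replicate 3 remained in cessation FA. Fcer2a was 7.79 ± 1.60 with smoke and 6.32 ± 0.63 in cessation FA (SD, n = 6 each), a difference of 1.46 ± 0.71 (SE, limma adjusted p = 0.17). Cr2 differed by 1.74 ± 0.88, Cd22 by 2.00 ± 1.02, Cd5 by 1.06 ± 0.52, Cd6 by 0.65 ± 0.33 and Cd8a by 1.55 ± 0.82. The balance was 0.34 ± 0.26 with smoke and -0.11 ± 0.46 in cessation FA, a difference of 0.45 beside a pooled SD of 0.37. Without cessation FA replicate 3 it was 0.27, and without that array and the 12 it was 0.08.

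Against cessation RA, which had as many high arrays, no gene passed, none had an unadjusted p under 0.05 in limma, and 2.34% of all genes were called. The median difference was 0.11, with 18 of 24 above 0, and -0.04 without the high arrays. Cd5 was 6.72 ± 1.30 with smoke and 6.43 ± 1.33 in cessation RA (SD, n = 6 each), a difference of 0.28 ± 0.52 (SE, limma adjusted p = 0.83). Cd8a differed by 0.41 ± 0.82, Cd6 by 0.14 ± 0.33, Cr2 by 0.43 ± 0.88, Cd72 by 0.22 ± 0.45 and Cd22 by 0.43 ± 1.02. Without smoke replicate 6 each of these 6 differences was below 0, from -0.29 for Cd22 to -0.13 for Cd6. The balance was 0.34 ± 0.26 with smoke and 0.20 ± 0.19 in cessation RA.

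Whether the smoke difference changed between 2 and 24 weeks was tested as an interaction. No gene passed, with 0.0324% of all genes called, and Cd5 alone had an unadjusted p under 0.05 in limma. The median of the 24 was 2.13, and 0.01 without the high arrays. Cd5 stood at 1.60 ± 0.73 (SE, limma adjusted p = 0.25), Cd8a at 2.29 ± 1.16, Cd6 at 0.88 ± 0.47, Cd72 at 1.22 ± 0.63, Fcer2a at 1.92 ± 1.00 and Cd79a at 2.57 ± 1.42.

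Over the 9 groups the mean balance ran from -0.11 in cessation FA to 0.34 with 24 weeks of smoke. Untreated mice had 0.15 ± 0.24 (SD, n = 6). The median balance was 0.50 in the 12 arrays and 0.04 in the other 44. Group means therefore mix both kinds of array, although they did not rank by the number of high arrays. Cessation RA, with 3 high arrays, had a mean of 0.20, and sham air at 24 weeks, with 1, had 0.27. Without the 12 arrays the balance was 0.17 with 24 weeks of smoke (n = 3), -0.12 in cessation FA (n = 5), 0.15 in cessation RA (n = 3) and 0.18 with sham air at 24 weeks (n = 5). At 2 weeks it was 0.01 with smoke (n = 6) and 0.04 with sham air (n = 5), and at 12 weeks 0.03 with smoke and -0.01 with sham air (n = 6 each). That value of cessation FA rests on replicate 3. Without it the mean was 0.0656 (n = 5), and without it and the high array 0.0955 (n = 4). No p is given for the balance, since it is a score over chosen genes.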

How the data were processed

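Gastrocnemius RNA of 55 mice was amplified and labelled with biotin for 56 single-colour arrays, per the labels' protocols. The deposited values are linear intensity per probe set, as the authors processed them. No source used here states the summarisation or the normalisation. They covered 45037 probe sets and ran from -20.0 to 15890, with 0.460% below 0. Values were floored at -15, which moved 5 of them, 16 was added and log2 taken. Platform annotation gave 1 gene symbol to 34945 probe sets, several to 932 and none to 9160, and only those with 1 were named.

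The probe set of highest mean stood for a gene. Genes with a mean of at least 5.71, the 40th percentile of probe sets, were tested: 12351. One limma model held 55 mice in 9 groups, with the G8 arrays averaged and 46 residual degrees of freedom, and p-values were adjusted by Benjamini-Hochberg over all 12351 genes at 0.05. The limma step was tested on simulated data, with normal noise whose spread for a gene was equal in all groups. The spread of lymphocyte genes differed between groups.

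The genes and lists were chosen with earlier results of these data known. The 3 B cell and 3 T cell genes of lowest p are named in each comparison, and every group's lowest, median and highest level is given for Ms4a1, Cd79a, Ighm, Pax5, Cd3e, Cd8a, Cd4 and Ptprc. Alternatives changed the pseudocount, filter, normalisation, probe set rule, arrays, weights and model. Leaving out cessation FA replicate 3 together with the 12 arrays was chosen after seeing the data. Versions were R 4.3.3, limma 3.58.1, Python 3.11.15, numpy 2.4.6, pandas 2.3.3 and matplotlib 3.10.9. Promoter windows are those of RefSeq on GRCm38.p6.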

Additional observations from a re-analysis of the deposited data

Results flagged for a closer look

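In 30 of 99 cases tested, which are 11 measures in each of 9 groups, 1 mouse lay far from the other mice of its group by Dixon's test. The usual chance rate of about 1 of 20 tested cannot be set against this, because the high arrays were chosen by the same genes. A group with a lone high array can be flagged by that choice alone. Only the cases of cessation FA replicate 3 and of smoke at 2 weeks, replicate 1, were in arrays outside that choice. The measures also share arrays, so the cases are not independent. Groups with several high arrays, such as 24 weeks of smoke and cessation RA, have no lone high mouse and so gave none for the B and T shifts.

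Untreated replicate 1 stood out in the B shift at 4.03 and the T shift at 3.57. The levels that set it apart were Ms4a1 at 11.36, Cd79a at 9.92, Cd3e at 9.85, Cd8a at 9.46, Cd4 at 7.54 and Ptprc at 11.66. Sham air at 2 weeks, replicate 3, stood out in the B shift at 3.45 and the T shift at 3.02. Its levels were Ms4a1 at 10.70, Cd79a at 9.12, Ighm at 11.20, Cd3e at 9.48, Cd8a at 8.67, Cd4 at 7.35 and Ptprc at 11.30.

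Sham air at 24 weeks, replicate 6, stood out in the B shift at 3.63 and the T shift at 2.93, with Ms4a1 at 10.65, Cd79a at 9.43, Cd3e at 9.33, Cd8a at 8.81, Cd4 at 7.47 and Ptprc at 10.99. Cessation FA replicate 4 stood out for B cell measures, the B shift at 2.35, Ms4a1 at 9.42 and Cd79a at 7.76. Cessation FA replicate 3 stood out in the balance alone, at -0.99. In smoke at 2 weeks, replicate 1 stood out in Ighm, at 7.55, with no other measure.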

How the results depend on the processing

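No member passed in any of the 8 comparisons under the 16 alternatives each or with any mouse left out. The lowest adjusted p of a member in limma was 0.073, for 24 weeks of smoke against sham air. Relative to the median of the 12 arrays, the balance of the least B-sided array was -0.19 on linear intensity, against -0.56, and that of cessation FA replicate 3 was -2.05 with a pseudocount of 1, against -1.49. The cause was not tested. Of the group differences in shift and balance, the relative balances and the counts of passing genes, the other 312 values, and 364 with a mouse left out, moved by less than 1 SD between mice or, for arrays, between the 12 arrays, and the counts stayed at 0. That SD is wide where a group holds high arrays.

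Among single genes, none past the threshold, these turned round. For cessation FA minus sham air, Ighm was 0.61 with a pseudocount of 64 and 0.51 with the mean of its probe sets. Cd79a was 0.0115 with array weights, 0.0572 without the 12 arrays and 0.12 without these and cessation FA replicate 3. For 24 weeks of smoke minus cessation FA, Cr2 was -0.0103 and Cd8a -0.0152 without the 12, and Cr2 -0.0289 without cessation FA replicate 3 too. For smoke minus cessation RA, array weights gave -0.00693 for Cd22, -0.14 for Cd72, -0.12 for Cr2, -0.0331 for Cd6 and -0.13 for Cd8a.

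With each mouse left out in turn, cessation FA minus sham air ran from -0.68 to 0.50 for Cd79a, from -0.79 to 0.32 for Bank1 and from -0.00915 to 1.20 for Cd3e, and smoke minus cessation FA ran from 1.03 to 2.21 for Cr2. Smoke minus cessation RA ran from -0.29 to 0.95 for Cd22, -0.22 to 0.46 for Cd72, -0.27 to 0.91 for Cr2, -0.14 to 0.56 for Cd5, -0.13 to 0.31 for Cd6 and -0.25 to 0.85 for Cd8a. The arrays whose absence turned a sign were sham air at 24 weeks, replicate 6, smoke at 24 weeks, replicate 6, cessation FA replicate 4, and cessation RA replicates 3 and 6. No paired analysis was possible because the mice of different groups are different animals, and no label ties a number in their names to a shared litter, batch or day.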
